A study of Homo sapiens with 20 samples.

Results

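The polyamine synthesis and antizyme genes form the core of one small metabolic circuit, and 9 of them were followed here: ODC1, AMD1, SRM and SMS (synthesis), SAT1 and SMOX (catabolism), OAZ1 and OAZ2 (antizymes) and AZIN1 (antizyme inhibitor). A probe set, the group of array probes that reports 1 transcript end, was taken as a member when the platform annotation assigns it to exactly 1 of these genes. The 9 genes are among 19353 with a probe set of their own, and they hold 18 of the 50441 probe sets in the deposited value table. Of the 18 member probe sets, 15 were tested, because their mean exceeded 4.5 on the log2 scale in at least 1 group. The remaining 3 (AZIN1 213747_at, SMOX 1555680_a_at and SMOX 217074_at) read under 4.5 on all 20 arrays. A further probe set, 210593_at, names SAT1 together with ZSWIM8 and was not used.

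Polyamines are small, positively charged molecules that bind RNA and DNA and that growing cells need. Ornithine decarboxylase (ODC1) makes putrescine from ornithine, and S-adenosylmethionine decarboxylase (AMD1) makes the aminopropyl donor that spermidine synthase (SRM) and spermine synthase (SMS) add to lengthen the chain. SAT1 acetylates spermidine and spermine for export or breakdown, and SMOX oxidizes spermine. High polyamine levels promote a translational frameshift on the antizyme mRNAs. Antizyme (OAZ1, OAZ2) then binds ODC1 protein, delivers it to the proteasome and lowers polyamine uptake, while AZIN1, an ODC1 relative without decarboxylase activity, binds antizyme and releases ODC1. Much of this control acts on translation and protein stability, which mRNA arrays do not measure.

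The arrays compare mRNA abundance after expression of ZFP36 (tristetraprolin), a zinc finger protein that binds AU-rich elements in mRNA and recruits the deadenylation machinery. All 20 were of HEK293 cells, an embryonic kidney cell line, in its Flp-In T-REx form, which is built to take up a transgene under a tetracycline-responsive promoter. In 5 induced arrays, cells with an EGFP-ZFP36 transgene had been given doxycycline at 1 µg/ml for 16 hours, and in 5 mock-induced arrays the same line had been given water. In 5 parental doxycycline arrays and 5 parental vehicle arrays, cells without the transgene had been given doxycycline or water. None of the sources used says whether the EGFP-ZFP36 line was 1 clone. Cells of several flasks were pooled for each sample and sorted, with GFP-positive cells kept in the induced samples and fluorescent cells excluded from the controls, and induced flasks were less confluent with more floating cells. Induction, sorting gate and culture density therefore cannot be told apart in these samples. The EGFP-ZFP36 line and the parental cells were also cultured separately. Within each line, doxycycline and water samples were prepared side by side on 5 days, but no source ties the replicate numbers to days, so the fits given here are unpaired.

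Levels are log2 GCRMA values, so a step of 1 is a doubling of signal, and they are compared only within a probe set, between groups. Arrays of 1 group correlated at 0.982 to 0.997. The ZFP36 probe set 201531_at read 5.42 ± 0.49 on induced and 5.36 ± 0.43 on mock-induced arrays, and 3.76 ± 0.58 on the doxycycline and 3.45 ± 0.56 on the vehicle arrays of parental cells (SD, n = 5 each). It did not differ by the test between induced and mock-induced cells (log2 difference 0.07, SE 0.26, limma, Bonferroni-adjusted p = 1), and whether its probes lie in the transgene is not given, so it does not check induction. Of the 3 HEK293 marker genes with a probe set, NEFL and VIM were above 4.5 in every group, whereas NEFM averaged 5.81 in induced and 3.87 in mock-induced cells, against 12.29 with doxycycline and 12.27 with vehicle in parental cells. Of 9 markers of blood, endothelial, fibroblast and liver cells, only COL3A1 exceeded 4.5, and their summed level was 25.5 to 25.9 on induced, 22.2 to 23.2 on mock-induced, 21.8 to 22.9 on parental doxycycline and 22.6 to 23.0 on parental vehicle arrays. Actin probes at the 3′ and 5′ ends, whose signals move apart when RNA is shortened, differed by 1.31 ± 0.13 on induced and by 1.52 ± 0.14 on mock-induced arrays. The part of these differences in the results below was not tested.

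Induced cells had lower ODC1, SMS and OAZ1 mRNA than mock-induced cells and a lower signal at 1 of the AZIN1 probe sets, while no member probe set was higher. In all, 5 of the 15 tested member probe sets were lower (Bonferroni-adjusted p under 0.01 over the 18639 probe sets tested, limma), where 21.8% of all tested probe sets were lower. None of the 15 was higher, where 22.1% of all tested probe sets were, and 3 were higher with Benjamini-Hochberg adjustment at 0.05, where 46.5% of all tested probe sets were. Counting both directions, 10 of the 15 had an unadjusted p under 0.05, where 86% of all tested probe sets did. The median log2 difference of the 15 was −0.07, against 0.12 over all tested probe sets. In these bulk samples, fewer cells with an mRNA and less of it per cell cannot be told apart.

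**Figure D1:**
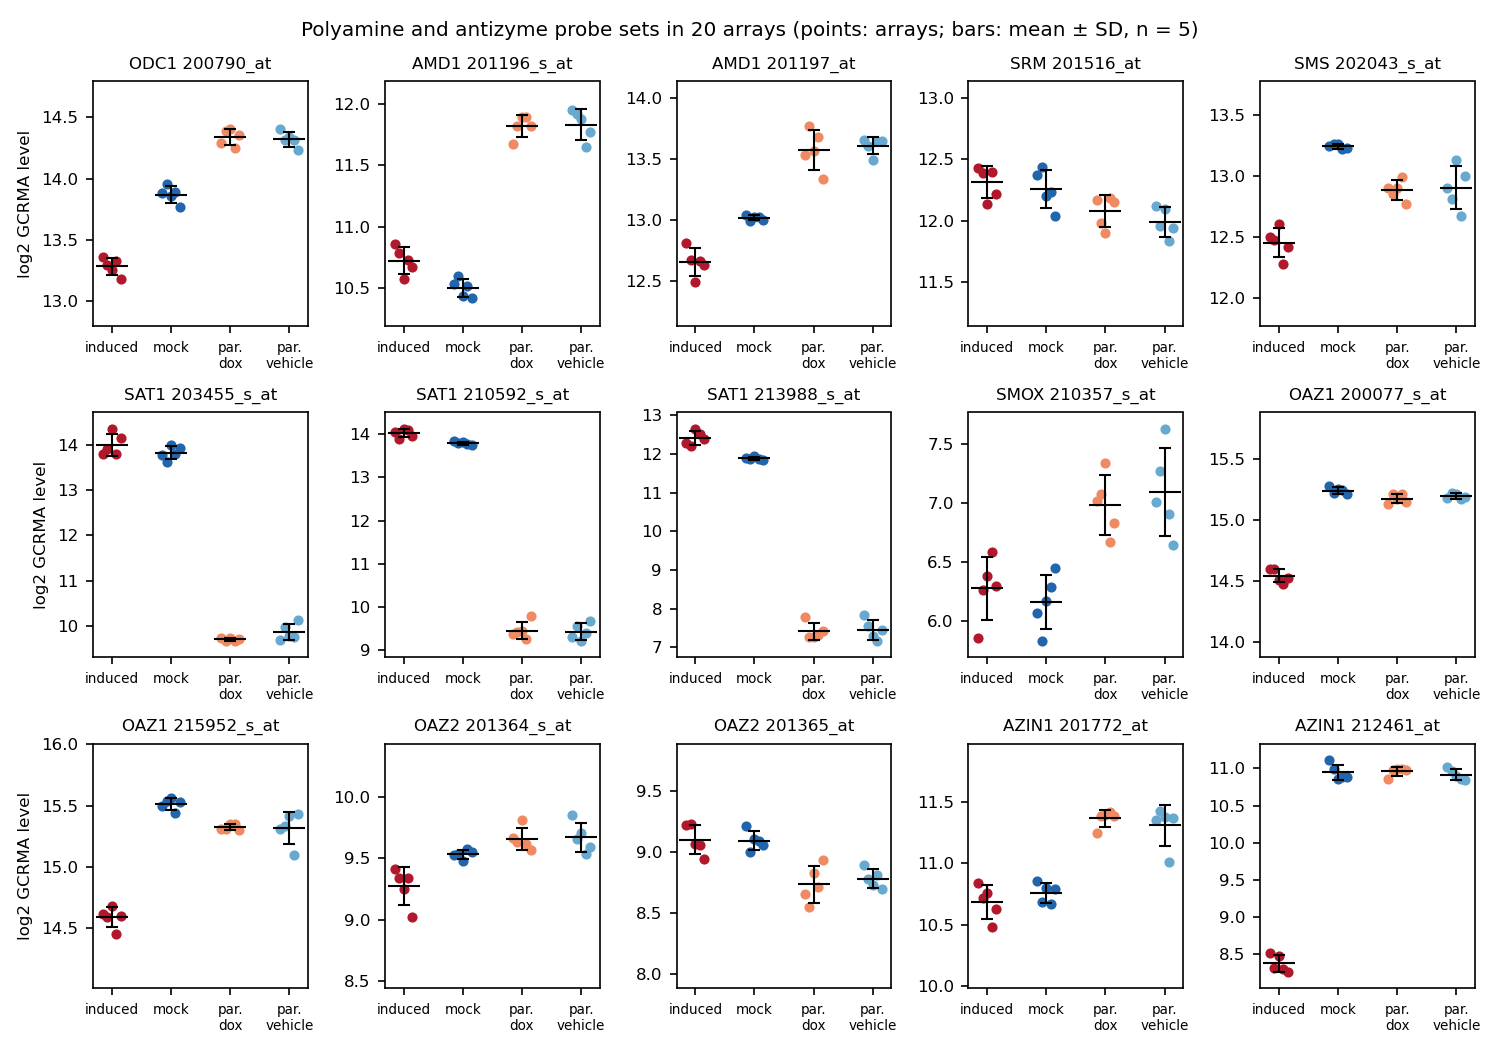
Log2 GCRMA level (vertical axis, each panel with its own range) of the 15 tested member probe sets in the 4 groups, with the EGFP-ZFP36 line on the left and parental cells on the right of each panel. Each point is 1 array, and bars are mean ± SD, n = 5. AZIN1 212461_at averaged 8.38 in induced cells and 10.95 in mock-induced cells, and the SAT1 probe sets separate the EGFP-ZFP36 line from the parental cells.

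Among the synthesis enzymes, ODC1 (200790_at), the first committed step, read 13.36, 13.29, 13.26, 13.33 and 13.18 on the induced arrays, against 13.88, 13.95, 13.85, 13.89 and 13.77 on the mock-induced arrays. Every induced array lay below every mock-induced array. ODC1 fell by 0.59 on the log2 scale (SE 0.05), a 1.50-fold lower level (limma, Bonferroni-adjusted p = 0.00645). This call was lost when any 1 of the 10 arrays was left out, with adjusted p between 0.0115 and 0.0477 while the difference stayed between −0.61 and −0.56, and when no filter on low values was applied (0.0156). The parental doxycycline arrays read 14.29, 14.39, 14.40, 14.25 and 14.36, and the parental vehicle arrays 14.40, 14.32, 14.34, 14.31 and 14.24, so both parental groups were above both groups of the EGFP-ZFP36 line and overlapped each other. The level of ODC1 in mock-induced cells was 0.45 below that of parental vehicle cells (difference −0.45, SE 0.05), a difference that did not pass the threshold (limma, Bonferroni-adjusted p = 0.0700). It did pass with all 20 arrays in 1 model (0.000637), with arrays centred on the median (0.00679) and with a trended, robust variance (0.00180).

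SMS (202043_s_at), which forms spermine, read 12.50, 12.48, 12.61, 12.28 and 12.42 on the induced arrays, against 13.24, 13.26, 13.26, 13.22 and 13.23 on the mock-induced arrays. The mock-induced values span less than 0.05 and none overlaps the induced values. SMS fell by 0.79 (SE 0.06), a 1.72-fold lower level (limma, Bonferroni-adjusted p = 0.00128). Without mock-induced replicate 1, 2 or 3 the adjusted p moved just past the threshold of 0.01, to at most 0.0108, as it did without the filter on low values and with arrays centred on spiked hybridization controls (0.0107). In parental cells SMS averaged 12.88 ± 0.08 with doxycycline and 12.90 ± 0.18 with vehicle, between the levels of induced and mock-induced cells. SRM (201516_at), the spermidine synthase, did not pass the test: it averaged 12.31 ± 0.13 on induced and 12.26 ± 0.16 on mock-induced arrays, a difference of 0.06 with a 95% confidence interval of −0.14 to 0.25.

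ODC1 and SRM are shown with the sequence at their start sites because both windows hold CACGTG, the E-box hexamer to which MYC and related factors bind, while only ODC1 was called. The search was chosen after the values were seen. RefSeq lists for each gene the 250 bases before and 50 after an annotated start (GRCh38.p14), and both genes lie on the minus strand, so each run reads 5′ to 3′ along the gene with the hexamer in capitals.
SRM, chr1:11060200-11060229: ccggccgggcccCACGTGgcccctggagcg
ODC1, chr2:10448024-10448053: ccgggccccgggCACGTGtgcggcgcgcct
ODC1, chr2:10447990-10448019: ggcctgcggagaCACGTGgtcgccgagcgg
The hexamer is its own reverse complement, so both strands are read at once. Both ODC1 matches fall in the window of 1 of its 2 annotated starts, and the other window holds 0. The windows found for AMD1, SMS, SAT1, OAZ1 and OAZ2 hold 0 as well, and AZIN1 and SMOX were not examined. Of all genes in the table, 8.78% have a window with the hexamer, so a match only describes the sequence.

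AMD1, which supplies the aminopropyl groups, was reported by a pair of probe sets with differences of opposite sign in the EGFP-ZFP36 line. The brighter one, 201197_at, read 12.81, 12.68, 12.50, 12.67 and 12.63 on the induced arrays, against 13.05, 13.00, 13.02, 13.03 and 13.00 on the mock-induced arrays, a difference of −0.36 (SE 0.06). The dimmer one, 201196_s_at, read 10.86, 10.78, 10.57, 10.72 and 10.67 on the induced arrays, against 10.53, 10.59, 10.43, 10.51 and 10.41 on the mock-induced arrays, a difference of 0.22 (SE 0.06). Neither passed the test (limma, Bonferroni-adjusted p = 1 for both), and the sign at 201196_s_at turned (−0.10) with arrays centred on spiked poly-A controls.

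AMD1 is a member for which the part of the study's ZFP36 binding site table used here lists sites in the 3′ UTR, found by crosslinking of FLAG/HA-tagged ZFP36 in HEK293 cells. The sites stand on the plus strand of chromosome 6 (hg19) and are shown for the AU-rich motifs they do or do not hold. Coordinates are as listed, and whether they count from 0 or from 1 is not settled. Capitals mark the stretch that holds both ATTTA, the AU-rich pentamer, and TATT, searched on the transcribed strand only, where they share letters.
AMD1, chr6:111215527-111215549: tttatatactaattctataccc
AMD1, chr6:111215764-111215785: cacccctttactaacttagta
AMD1, chr6:111215789-111215813: tataaaatcattttTATTTAgtta
Only the last of the 3 AMD1 sites printed holds these motifs. Member sites over a set length were left out, so longer AMD1 sites may be missing here, and AZIN1 was not examined for sites. Among all 1026 sites in 3′ UTRs in that part of the table, 42.5% hold ATTTA and 77.9% hold TATT. These shares were taken with no limit on length, so they do not compare directly with the AMD1 sites.

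OAZ1, the most widely expressed antizyme, was lower at both of its probe sets. At 215952_s_at it read 14.62, 14.59, 14.68, 14.45 and 14.60 on the induced arrays, against 15.49, 15.54, 15.56, 15.44 and 15.53 on the mock-induced arrays, and fell by 0.93 (SE 0.05), a 1.90-fold lower level (limma, Bonferroni-adjusted p = 6.31e-05). At 200077_s_at it read 14.60, 14.60, 14.51, 14.48 and 14.53 on the induced arrays, against 15.28, 15.22, 15.25, 15.25 and 15.21 on the mock-induced arrays, and fell by 0.70 (SE 0.04), a 1.62-fold lower level (limma, Bonferroni-adjusted p = 0.000199). At neither probe set did the groups overlap. In parental cells 200077_s_at averaged 15.17 ± 0.04 with doxycycline and 15.20 ± 0.02 with vehicle, and 215952_s_at 15.33 ± 0.02 with doxycycline and 15.32 ± 0.13 with vehicle. These levels are close to the upper end of the value table, whose highest value is 16.64. OAZ2, a second antizyme, did not pass the test at 201364_s_at (9.27 ± 0.15 on induced and 9.53 ± 0.04 on mock-induced arrays, difference −0.26, SE 0.07) or at 201365_at (9.10 ± 0.12 on induced and 9.09 ± 0.08 on mock-induced arrays, difference 0.01, SE 0.07).

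AZIN1, the inhibitor of antizyme, gave the largest difference among the members, but at 1 probe set only. At 212461_at it read 8.52, 8.32, 8.48, 8.30 and 8.27 on the induced arrays, against 11.12, 10.99, 10.86, 10.89 and 10.88 on the mock-induced arrays. The gap between the groups exceeded 2 on the log2 scale, and the signal was 5.94-fold lower in induced cells (log2 difference −2.57, SE 0.07, limma, Bonferroni-adjusted p = 3.48e-08). In parental cells the same probe set stayed at the mock-induced level, with 10.86, 10.98, 11.00, 10.99 and 10.98 on the doxycycline arrays and 11.01, 10.96, 10.90, 10.86 and 10.84 on the vehicle arrays. At 201772_at AZIN1 read 10.84, 10.72, 10.76, 10.48 and 10.63 on the induced arrays, against 10.85, 10.69, 10.80, 10.67 and 10.79 on the mock-induced arrays. These values overlapped, with a difference of −0.07 and a 95% confidence interval of −0.23 to 0.08. Which ends or transcripts of AZIN1 the probe sets read is not given in the files used here.

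To ask whether probe sets of the same gene changed unequally, each was set against the brightest probe set of that gene on the same array. This removes a constant log2 shift of a whole array, but not effects that depend on the signal level. For AZIN1, 212461_at minus 201772_at was −2.31 ± 0.09 on induced and 0.19 ± 0.11 on mock-induced arrays (SD, n = 5 each), and the groups differed by −2.49 (exact two-sided permutation test, p = 0.00794, Benjamini-Hochberg adjusted over 6 pairs 0.0119). For AMD1 the difference between groups was 0.59, for OAZ2 0.27 and for OAZ1 0.23, each with the same p of 0.00794 and adjusted p of 0.0119 by the exact permutation test, the smallest that 5 against 5 arrays can give. Of these, AZIN1 differed by the most. Of the SAT1 pairs, 213988_s_at minus 203455_s_at differed by 0.35 (exact permutation test, adjusted p = 0.0190) and 210592_s_at minus 203455_s_at by 0.06 (exact permutation test, adjusted p = 0.659). All 5 genes with more than 1 tested probe set thus had a pair at an adjusted p under 0.05. Pairs of other genes were not tested, so whether this count is unusual on these arrays is not known.

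Of the catabolic enzymes, SAT1, which acetylates spermidine and spermine, was not called at any of its 3 probe sets on induction. It averaged 14.00 ± 0.24 in induced and 13.82 ± 0.15 in mock-induced cells at 203455_s_at, with a difference of 0.17 (SE 0.12). At 210592_s_at the difference was 0.23 (SE 0.06) and at 213988_s_at 0.52 (SE 0.08), and at both of these every induced array lay above every mock-induced array although neither passed the Bonferroni threshold (limma, adjusted p = 1). Centring the arrays on the spiked poly-A controls turned the difference of 203455_s_at to −0.15 and that of 210592_s_at to −0.09. Among the shorter sites kept from the same part of the ZFP36 site table, 1 lies in the SAT1 3′ UTR, on the plus strand of chromosome X (hg19). Of the members examined, only AMD1 and SAT1 have a site among those kept, and AZIN1 was not examined. Whether a site bears on the level of an mRNA was not tested. The SAT1 site holds neither ATTTA nor TATT.
SAT1, chrX:23804295-23804319: attcttttttaataaactactctt
SMOX (210357_s_at), the spermine oxidase, read low in all groups, with 6.28 ± 0.26 on induced and 6.16 ± 0.23 on mock-induced arrays, a difference of 0.11 with a 95% confidence interval of −0.20 to 0.43.

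Doxycycline in parental cells addresses whether the drug alone changes these mRNAs. No member probe set passed the test between parental doxycycline and parental vehicle arrays (limma, Bonferroni-adjusted p under 0.01: 0 of 15 lower and 0 of 15 higher, where 0% of all tested probe sets were lower and 0% higher). At an unadjusted p under 0.05, 0 of the 15 and 414 of the 18639 tested probe sets passed, and 0 of either passed a Benjamini-Hochberg adjusted p under 0.05. Differences of the members lay between −0.16 (SAT1 203455_s_at) and 0.09 (SRM). For ODC1 the 95% confidence interval of the difference was −0.10 to 0.13, for OAZ1 200077_s_at −0.11 to 0.07 and for AZIN1 212461_at −0.07 to 0.16. The widest was that of SMOX, −0.51 to 0.30.

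The response to doxycycline was then compared between the lines, as the difference in the EGFP-ZFP36 line minus the difference in parental cells. Of the 15 member probe sets, 4 had a lower value in this comparison, where 20.6% of all tested probe sets did, and 0 had a higher one, where 19.1% of all tested probe sets did (limma, Bonferroni-adjusted p under 0.01). At a Benjamini-Hochberg adjusted p under 0.05, 3 had a higher one, where 41.6% of all tested probe sets did. In either direction, 10 of the 15 passed an unadjusted p under 0.05, where 78.7% of all tested probe sets did. The 4 were AZIN1 212461_at (−2.61, SE 0.09, adjusted p = 5.02e-13), OAZ1 215952_s_at (−0.93, SE 0.08, adjusted p = 1.60e-05), OAZ1 200077_s_at (−0.67, SE 0.06, adjusted p = 6.73e-06) and ODC1 (−0.60, SE 0.07, adjusted p = 0.00172). SMS did not pass (−0.77, SE 0.11, limma, adjusted p = 0.0131). With arrays centred on spiked hybridization or poly-A controls, AZIN1 212461_at was the 1 member still called, and the other 3 kept their sign (adjusted p 0.137 to 1). This comparison shares its induced and mock-induced arrays with the one above and is not independent of it.

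**Figure D2:**
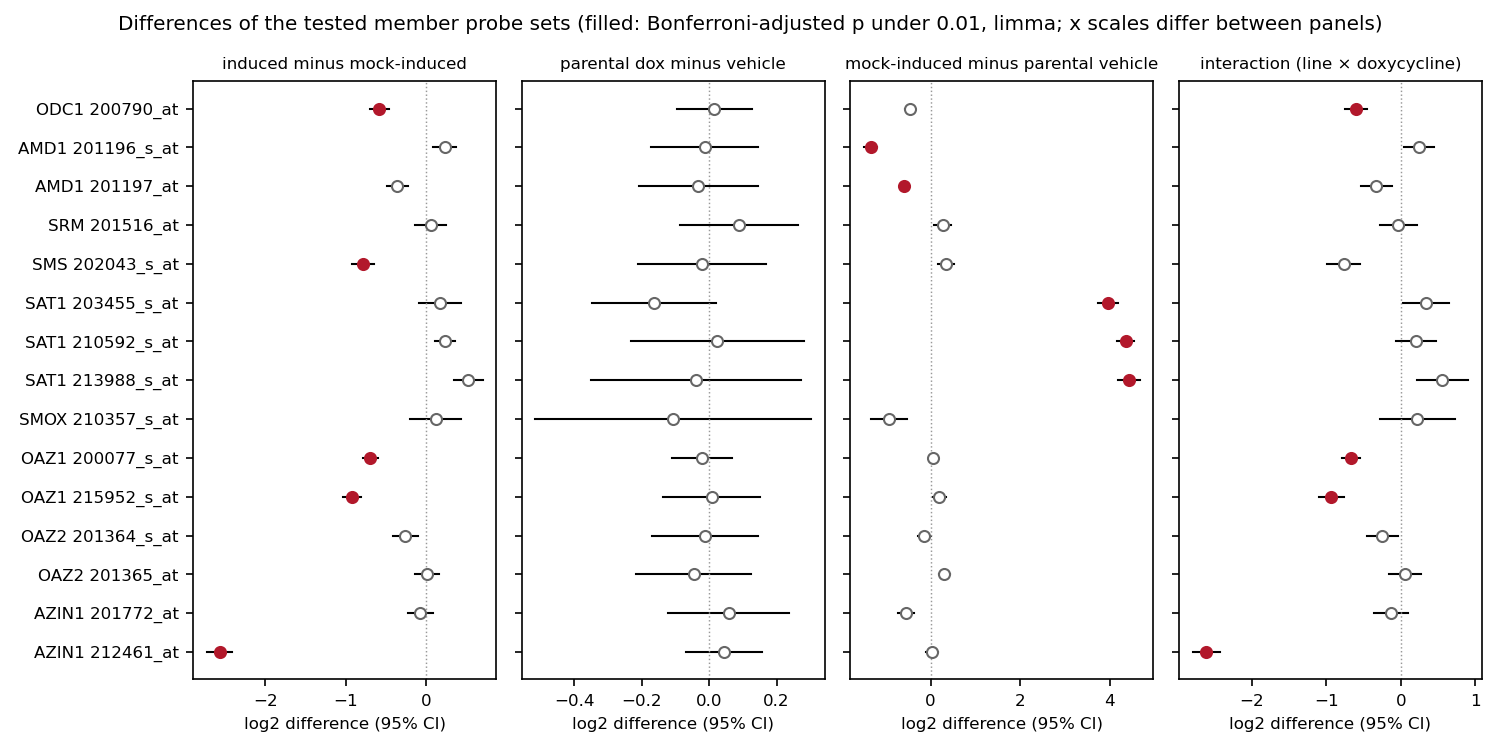
Log2 difference (horizontal axes, each panel with its own range) of the 15 tested member probe sets, one per row, with its 95% confidence interval, for induced minus mock-induced, parental doxycycline minus vehicle, mock-induced minus parental vehicle, and the difference between lines in the response to doxycycline. Filled points have a Bonferroni-adjusted p under 0.01 (limma). Lower calls after induction are 5, none is called in parental cells, and the 3 SAT1 probe sets lie near 4 between the lines without doxycycline.

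Before any induction, the EGFP-ZFP36 line already differed from parental cells, and among the members most in SAT1. Mock-induced arrays read 13.77, 13.62, 14.00, 13.80 and 13.94 at SAT1 203455_s_at, against 9.68, 9.97, 9.78, 9.76 and 10.13 on the parental vehicle arrays. At 210592_s_at they read 13.84, 13.81, 13.82, 13.77 and 13.75, against 9.30, 9.57, 9.22, 9.40 and 9.68 on the parental vehicle arrays. No value of a mock-induced array came within 3 log2 units of a parental one at either probe set.

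Over parental vehicle cells, SAT1 was 15.6-fold higher in mock-induced cells at 203455_s_at (log2 difference 3.96, SE 0.10, limma, Bonferroni-adjusted p = 2.28e-08). It was 20.5-fold higher at 210592_s_at (4.36, SE 0.08, limma, adjusted p = 1.59e-09) and 21.5-fold higher at 213988_s_at (4.42, SE 0.11, limma, adjusted p = 1.93e-08). At 213988_s_at the means were 11.88 ± 0.04 in mock-induced and 7.46 ± 0.26 in parental vehicle cells. These were the 3 of 15 member probe sets called higher, where 10.2% of all tested probe sets were. With 1 line of each kind, a difference between lines and the separate culture and sorting of the lines cannot be told apart. Beside it, NEFM was 3.87 ± 0.28 in mock-induced and 12.27 ± 0.10 in parental vehicle cells.

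AMD1 went the other way and accounted for the 2 member probe sets called lower in this comparison, where 6.88% of all tested probe sets were lower. At 201196_s_at the mock-induced arrays, given above, read 10.41 to 10.59, against 11.95, 11.92, 11.88, 11.65 and 11.77 on the parental vehicle arrays. All of these lie more than 1 unit apart, and AMD1 was 2.53-fold lower in mock-induced cells (log2 difference −1.34, SE 0.07, limma, Bonferroni-adjusted p = 2.69e-05). At 201197_at the mock-induced arrays read 13.00 to 13.05, against 13.66, 13.60, 13.49, 13.65 and 13.64 on the parental vehicle arrays, and AMD1 was 1.50-fold lower in mock-induced cells (−0.59, SE 0.05, limma, adjusted p = 0.00241). The call at 201197_at was lost without any 1 of the mock-induced replicates or without parental vehicle replicate 1, 2 or 5 (adjusted p 0.0151 to 0.0186), and both calls were lost with arrays centred on the poly-A controls (adjusted p = 0.0138 for 201196_s_at and 1 for 201197_at, which was also lost with the hybridization controls). SMOX (difference −0.93, SE 0.18) and AZIN1 201772_at (−0.55, SE 0.08) did not pass, and OAZ1, OAZ2, SMS and SRM differed by −0.14 to 0.34 with none called.

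The order of levels therefore differed from gene to gene. ODC1 was highest in the parental groups, followed by mock-induced and then induced cells, and the calls of induced against mock-induced and of mock-induced against parental vehicle cells depend on the settings given above. AMD1 201196_s_at was highest in the parental groups, above induced and mock-induced cells, and neither pair of neighbours within a line passed the test. SMS was highest in mock-induced cells, a level that did not pass the test against parental vehicle cells, and SAT1 was highest in both groups of the EGFP-ZFP36 line. AZIN1 212461_at and OAZ1 were lowest in induced cells, and their other 3 group means lay within 0.20 of each other.

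The probe sets nearest to ODC1 in pattern, by root mean square difference of centred log2 values over the 20 arrays, were those of PSMD6, a proteasome regulatory subunit (202753_at, 0.0602), VAMP7, a vesicle fusion protein (202829_s_at, 0.0627), and SLC25A5, the mitochondrial ADP/ATP carrier (200657_at, 0.0657). PSMD6 averaged 12.39 on induced and 12.96 on mock-induced arrays, with 13.45 on the doxycycline and 13.39 on the vehicle arrays of parental cells. The likeness is a description over 4 groups and carries no test.

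Around the core circuit lie the enzymes that supply ornithine and recycle the methionine skeleton, further catabolic enzymes and an antizyme inhibitor, polyamine transporters and the hypusine pathway, in which spermidine modifies the translation factor EIF5A. Of the 26 genes listed for these steps, 25 had a probe set of their own and 35 of their 53 probe sets were tested. Of the 35, 13 were lower and 6 higher in induced than in mock-induced cells (limma, Bonferroni-adjusted p under 0.01), where 21.8% of all tested probe sets were lower and 22.1% higher, with a median log2 difference of −0.74, against 0.12 over all tested probe sets. By the brightest probe set of each of 22 genes, 9 were lower and 4 higher, to be read against the same shares. In parental cells 0 of the 35 were called for doxycycline (limma), where 0% of all tested probe sets were lower and 0% higher. At an unadjusted p under 0.05 (limma), 0 of the 35 and 414 of the 18639 tested probe sets passed there. Between mock-induced and parental vehicle cells 5 of the 35 were lower and 1 higher, where 6.88% of all tested probe sets were lower and 10.2% higher.

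The methionine salvage pathway returns the methylthioadenosine left over from spermidine and spermine synthesis to methionine. It held 4 genes that were lower at their brightest probe set, all those listed for it except ADI1. Over all tested probe sets, 21.8% were lower. APIP averaged 7.50 ± 0.06 in induced and 10.91 ± 0.06 in mock-induced cells (log2 difference −3.41), and ENOPH1, a later enzyme of the same route, 8.79 ± 0.15 in induced and 12.17 ± 0.08 in mock-induced cells (−3.38). MTAP, which opens the route, fell by 1.40 and MRI1, the next step, fell by 1.10. ADI1, the dioxygenase near its end, did not pass at its brightest probe set (−0.66, limma, adjusted p = 0.0314) and fell by 3.27 at 217761_at. MAT2A and MAT2B, catalytic and regulatory subunits of the enzyme that makes S-adenosylmethionine, the substrate of AMD1, fell as well: MAT2A fell by 1.46 and MAT2B fell by 2.11. AHCY, which clears S-adenosylhomocysteine, rose by 0.87.

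OAT, the mitochondrial aminotransferase that interconverts ornithine and glutamate semialdehyde, fell by 3.78 (10.77 ± 0.14 in induced and 14.55 ± 0.07 in mock-induced cells), whereas ARG2, the mitochondrial arginase that yields ornithine, rose by 0.94. ATP13A3, a polyamine transporter, fell by 2.27 at its brightest probe set and had a difference of −0.74 at 219558_at that did not pass. EIF5A2, the second EIF5A gene, fell by 3.22 (4.69 ± 0.34 in induced and 7.91 ± 0.08 in mock-induced cells), whereas EIF5A itself did not pass (0.16, SE 0.07) and DHPS, the first hypusine enzyme, rose by 0.82. SAT2, a relative of SAT1, rose by 1.18. Between the lines without doxycycline, OAT was higher in mock-induced cells (0.80), MRI1 (−0.82), MTAP (−0.80) and AHCY (−0.78) were lower, and AGMAT was at 2.45 ± 0.12 in mock-induced cells, near the lowest value of the table, against 5.88 ± 0.69 in parental vehicle cells.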

How the data were processed

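RNA of 20 samples was hybridized to Affymetrix Human Genome U133 Plus 2.0 arrays. The authors deposited GCRMA-normalized values on the log2 scale (the sources used give no version); background correction and quantile normalization set the floor of 2.19 and equalize total signal between arrays, so a shift of all mRNAs would not be seen. Scanner files were not used here, and the number of arrays limits the precision. Names came from the platform annotation (38070 probe sets name exactly 1 gene). Those whose mean passed 4.5 in any group (18639), as in the study's methods, were fitted with limma 3.58.1 (lmFit, eBayes, R 4.3.3), using the arrays of the groups compared, or all 20 for the comparison of doxycycline responses, with calls at a Bonferroni-adjusted p under 0.01. Tested on simulated data, the fit gave unbiased estimates and incomplete recovery. Pairs of probe sets were tested by exact permutation (Python 3.11.15, scipy 1.17.1).

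Members, lists and tests were chosen with earlier results of these data known. All member probe sets are described; other pathway genes are named by their brightest probe set where called, with further ones named after their values were seen. Groups came from the sample labels, and the cell samples of a group were prepared on separate days per the study's methods. Alternatives were adjustment, filter, scaling, 1 probe set per gene, variance model, a replicate block and leaving out each array. Binding site sequences came from the study's site table, and promoters from RefSeq. Member sites over a set length and any sites of AZIN1 were left out.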

Additional observations from a re-analysis of the deposited data

Results flagged for a closer look

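The response to doxycycline differed between the EGFP-ZFP36 line and parental cells at 4 of the 15 member probe sets, by a test of the difference itself (limma, Bonferroni-adjusted p under 0.01): AZIN1 212461_at (−2.61), OAZ1 215952_s_at (−0.93), OAZ1 200077_s_at (−0.67) and ODC1 200790_at (−0.60). Of all tested probe sets, 20.6% were lower in this comparison. With arrays centred on spiked hybridization or poly-A controls, only AZIN1 212461_at stayed called. With the replicate block, ODC1 (limma, adjusted p = 0.0989) and OAZ1 200077_s_at (0.0111) were not called.

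Among 60 groups of 5 arrays examined (15 probe sets in 4 groups), 3 held an array far from the others, and chance gives about 1 in 20 groups. All 3 were of AZIN1 in parental cells. At 201772_at, parental doxycycline replicate 1 read 11.25, where the next array read 11.39, and parental vehicle replicate 4 read 11.02, where the next read 11.35. At 212461_at, parental doxycycline replicate 1 read 10.86, where the next read 10.98.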

How the results depend on the processing

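No called member value changed sign under any alternative run. After induction, AZIN1 212461_at and OAZ1 215952_s_at stayed called under every alternative in which they were tested, as did SAT1 in mock-induced against parental vehicle cells (with 1 probe set per gene, AZIN1 212461_at and SAT1 210592_s_at and 213988_s_at are not tested). Parental doxycycline against vehicle gave 0 member calls under every alternative. Lower members after induction (5) were 3 with 1 probe set per gene, 3 without the filter on low values, 2 with the replicate block and 3 to 4 on leaving out 1 array. With Benjamini-Hochberg adjustment under 0.05, 3 members were higher there. In the comparison of doxycycline responses, lower members (4) were 7 and higher members (0) 3 with Benjamini-Hochberg, and lower members were 1 with hybridization controls, 1 with poly-A controls and 2 with the block. In mock-induced against parental vehicle cells, lower members (2) were 1 with 1 probe set per gene, 5 with Benjamini-Hochberg, 1 with hybridization controls, 0 with poly-A controls and 1 to 2 on leaving out 1 array, and higher members (3) were 1 with 1 probe set per gene and 7 with Benjamini-Hochberg. Of all 18639 tested probe sets, Benjamini-Hochberg called 13172 in that comparison and 14458 in the comparison of responses, both directions together.

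Over all probe sets, calls after induction (8198) were 15933 with Benjamini-Hochberg and 4352 with the block, calls in the comparison of responses (7402) were 14458 with Benjamini-Hochberg, 4834 with hybridization controls and 3214 with poly-A controls, and calls in mock-induced against parental vehicle cells (3185) were 13172 with Benjamini-Hochberg, 5354 with all 20 arrays in 1 model, 2064 without the filter and 1808 with poly-A controls. Poly-A centring, added after seeing the data, moved the median of all probe sets after induction to −0.20 (0.12 as deposited) and the share of calls that were lower to 68.7% (49.7%). For the comparison of responses that share was 72.2% with hybridization and 70.0% with poly-A controls (51.9%), and for mock-induced against parental vehicle cells 52.8% with median centring and 28.2% with poly-A controls (40.3%). Beyond what fewer probe sets per gene or another threshold does by construction, the cause of these shifts was not tested.

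The methods describe samples with and without doxycycline prepared together by day, but no source says that a replicate number marks a day, and the data did not settle it: deviations from group means correlated at 0.01 to 0.21 in the EGFP-ZFP36 line and −0.19 to 0.38 in parental cells, and 1 of 5 and 2 of 5 numbers matched best with their own. With the replicate block, the adjusted p after induction was 0.135 for ODC1, 0.0726 for SMS and 0.0532 for OAZ1 200077_s_at. The 5 called pairs of probe sets could not go below an exact p of 0.0625 with the block (adjusted 0.075). No block could be fitted between the lines, where it is confounded with line.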
